A study of Homo sapiens with 2 samples.

Results

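Integrins are receptors built from an α and a β chain, and leukocytes use them to hold on to vessel walls, to other cells and to matrix. They sit in a resting shape until a signal inside the cell makes talin and kindlin bind the tail of the β chain, which opens the receptor for its ligand. Selectins act earlier, when a cell rolls along the vessel wall, and they bind sugar chains carried by proteins such as PSGL-1. On B cells these receptors serve entry into lymph nodes and gut tissue, retention in follicles and contact with T cells.

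The genes described here are 9 adhesion genes of leukocytes, ITGAL, ITGAM, ITGAX, ITGB2, ITGA4, ITGB1, ITGB7, ITGAE and SELPLG, out of 19096 gene symbols in the tables. They were taken by symbol, and each is given by its transcript with the highest mean level over both libraries. The 9 genes held 15 transcript rows, and rows of the same gene differed by at most 0.024 in log2 ratio. All 9 passed a filter of a mean of at least 1 RPKM (read density per kilobase of transcript, scaled to library size), as did 10272 genes in all.

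RNA with poly(A) tails was sequenced from P493-6, a human B cell line, labelled as B cell lymphoma. The line carries a c-Myc transgene that tetracycline represses. The high c-Myc group was 1 library of cells in which the transgene had been released for 24 h, and the low c-Myc group was 1 library of cells at 0 h of release. Both groups share the line and the transgene, and synthetic RNAs were added to each by cell number. With 1 library per group there was no replicate check and no test, so a gene is called higher or lower only by size, at a 2-fold difference on the log2(RPKM + 0.5) scale.

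The steps between low RPKM values implied about 105400000 reads in high c-Myc cells and 103000000 in low c-Myc cells. MYC, the gene controlled in the experiment, stood at 2358 RPKM in high c-Myc cells and 836 RPKM in low c-Myc cells. MYC transcripts were thus abundant in the low c-Myc library too, where the median expressed gene was at 7.57 RPKM. The B cell label was checked on 7 B cell markers, all of which were measured. Their summed level was 1253 RPKM in high c-Myc cells and 3268 RPKM in low c-Myc cells. Of the 7, 3 were at least 2-fold lower in high c-Myc cells, beside 9.74% of all expressed genes. Among 8 T cell markers CD3D, CD8A and TRAT1 were listed at 0 in both libraries, and among 8 myeloid markers S100A8, S100A9 and MPO were. Others of these lists were detected, with CD68 at 11.1 RPKM in high c-Myc cells and 66.5 RPKM in low c-Myc cells, LYZ at 4.91 RPKM in high c-Myc cells and 27.2 RPKM in low c-Myc cells, and CD3E at 1.499 RPKM in high c-Myc cells and 8.30 RPKM in low c-Myc cells.

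Promoter sequence is shown for 3 genes with unlike ratios, ITGAM and ITGB1, which were at least 2-fold lower in high c-Myc cells, and ITGB7, which was not. RefSeq promoters on GRCh38.p14 were found for 5 of the 9 genes. Each line holds 190 bases, from 250 to 61 bases before the listed start, a window free of GENCODE 29 exons at these genes, read 5′ to 3′ on the gene's strand. Capitals mark GAGGAA or its complement TTCCTC, the core bound by the myeloid and B cell factor PU.1.
ITGAM, chr16:31259725-31259914, plus strand: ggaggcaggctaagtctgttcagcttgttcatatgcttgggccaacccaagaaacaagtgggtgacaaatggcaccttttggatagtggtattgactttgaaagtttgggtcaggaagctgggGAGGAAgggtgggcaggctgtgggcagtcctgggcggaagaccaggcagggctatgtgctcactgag
ITGB1, chr10:32958291-32958480, minus strand: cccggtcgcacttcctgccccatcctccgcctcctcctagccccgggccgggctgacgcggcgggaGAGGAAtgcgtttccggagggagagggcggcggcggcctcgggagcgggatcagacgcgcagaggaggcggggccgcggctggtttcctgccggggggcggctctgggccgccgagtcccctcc
ITGB7, chr12:53207312-53207501, minus strand: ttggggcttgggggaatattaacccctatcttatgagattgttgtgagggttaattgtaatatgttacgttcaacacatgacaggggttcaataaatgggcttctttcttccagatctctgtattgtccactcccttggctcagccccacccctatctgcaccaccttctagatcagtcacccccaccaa
The core was found 127 bases before the start in ITGAM and 184 bases before it in ITGB1, and these letters are not in the ITGB7 window. Among the other genes with a promoter it was found 152 bases before the start of ITGAE, which was short of 2-fold, and not in the window of ITGA4, which was at least 2-fold lower. Of the 190 bases of the ITGA4 window, 124 overlap exons of ITGA4, so that window is largely exon sequence. On either strand the PU.1 core occurs in 18.2% of the 35116 RefSeq promoters over the same window. The E-box CACGTG, which MYC and MAX bind, occurs in 4.13% of them and the RUNX core TGTGGT, searched on both strands, in 8.49%, and neither occurs in the windows of the 5 genes. The ITGB1 window is 76.8% G and C with 24 CG pairs, while the ITGAM window is 54.2% with 1 CG pair and the ITGB7 window 46.3% with 1 CG pair. RefSeq lists a second ITGB1 start, whose window holds none of the 3 motifs.

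On the deposited scale every one of the 9 genes had a lower RPKM in high c-Myc cells than in low c-Myc cells, and 5 of the 9 (55.6%) were at least 2-fold lower. Over all expressed genes 9.74% were at least 2-fold lower and 24.9% at least 2-fold higher, and none of the 9 was at least 2-fold higher. Their median log2 ratio of high over low c-Myc was -1.16, where all expressed genes had a median of 0.22 and an interquartile range of -0.44 to 0.997. All 9 lay below that median, and 41.4% of the expressed genes lay below 0. Centring all ratios on the median of the expressed genes also gave 5 of the 9, beside 14.8% lower and 19.8% higher genes overall. The 5 lower genes were ITGAX, ITGAM, ITGA4, ITGB1 and ITGAL, which are 4 of the 5 α chains and 1 of the 3 β chains.

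**Figure D1:**
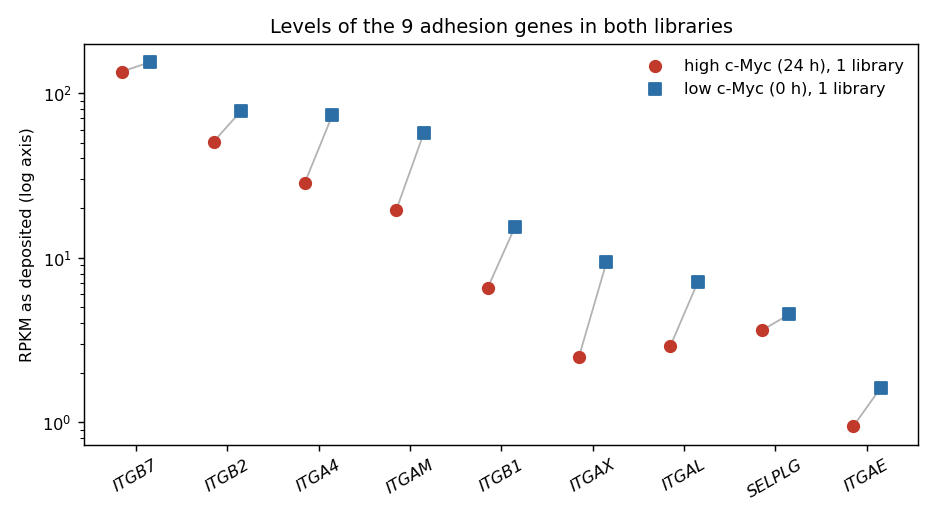
Deposited RPKM (log axis) of the 9 genes in high c-Myc cells (circles) and the low c-Myc library (squares), ordered by mean level, with grey lines joining the libraries of a gene. ITGB7 is at the top with 135 RPKM in the high and 154 RPKM in the low c-Myc library and ITGAE at the bottom with 0.94 RPKM in the high and 1.61 RPKM in the low, and each circle lies below its square.

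The β2 integrins, found on leukocytes alone, pair ITGB2 with ITGAL, ITGAM or ITGAX. ITGAM (NM_000632) encodes αM, the chain of Mac-1 that binds ICAM-1, fibrinogen and complement fragments, and stood at 19.5 RPKM in high c-Myc cells and 56.8 RPKM in low c-Myc cells. Its log2 ratio was -1.52, rank 321 from the lowest of the 10272 genes. ITGAX (NM_000887) encodes αX, a chain best known from dendritic cells and macrophages and also found on some B cells, and stood at 2.50 RPKM in high c-Myc cells and 9.35 RPKM in low c-Myc cells. With a log2 ratio of -1.71, rank 204 from the lowest, it differed most of the 9 as deposited, while after quantile normalization ITGAM did, at -2.06 against -1.96 for ITGAX. ITGAL (NM_001114380) encodes αL, the chain of LFA-1 that lets lymphocytes bind ICAM-1, and stood at 2.90 RPKM in high c-Myc cells and 7.10 RPKM in low c-Myc cells, a log2 ratio of -1.16.

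ITGB2 (NM_001127491), the β chain that all 3 share, differed less than any of them. It stood at 50.6 RPKM in high c-Myc cells and 77.6 RPKM in low c-Myc cells, a log2 ratio of -0.61, which is short of 2-fold but was -1.22 after quantile normalization. About 15525 reads in high c-Myc cells and 23291 in low c-Myc cells lay behind these levels, and without a pseudocount the ratio was -0.62 with an exact 95% counting interval of -0.65 to -0.59. Such intervals cover counting error only. Over the 2 libraries the expressed genes nearest to ITGB2 in log2(RPKM + 0.5) were NEK6, with 50.9 RPKM in high c-Myc cells and 77.7 RPKM in low c-Myc cells, LAP3 and FGD3, at distances of 0.01, 0.052 and 0.067.

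ITGAM, ITGAX and ITGAD are neighbours on chromosome 16, in that order. ITGAD, the fourth α partner of ITGB2, stood at 0.38 RPKM in high c-Myc cells and 0.80 RPKM in low c-Myc cells and did not pass the filter. ITGAM was the most abundant α partner of ITGB2 and made up 78.3% of the summed RPKM of ITGAL, ITGAM and ITGAX in high c-Myc cells and 77.6% of it in low c-Myc cells. ITGAL held 11.7% of that sum in high c-Myc cells and 9.69% in low c-Myc cells, and ITGAX held 10.1% in high c-Myc cells and 12.8% in low c-Myc cells.

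ITGAM and ITGAX are commonly used as myeloid markers, so other myeloid genes were set beside them. Of the 8 myeloid markers, LYZ and CD68 were measured and both were at least 2-fold lower in high c-Myc cells, beside 9.74% of all expressed genes. The summed level of the list was 16.1 RPKM in high c-Myc cells and 93.8 RPKM in low c-Myc cells. CD14, a defining monocyte marker, and CSF1R, one of monocytes and macrophages, were below 1 RPKM in both libraries. The 8 T cell markers summed to 2.26 RPKM in high c-Myc cells and 13.4 RPKM in low c-Myc cells, and CD3E, CD3G and CD2, the 3 measured, were all at least 2-fold lower. The part of such cells in the integrin values was not tested. These marker levels are on the deposited scale, which gives shares of a library and not amounts per cell. In bulk RNA, fewer cells of a type and a smaller share of these transcripts in each cell cannot be told apart.

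The α4 integrins join ITGA4 to ITGB1, which gives VLA-4, a receptor for VCAM-1 and fibronectin, or to ITGB7, which gives the gut homing receptor for MAdCAM-1. ITGA4 (NM_000885) stood at 28.6 RPKM in high c-Myc cells and 73.3 RPKM in low c-Myc cells, a log2 ratio of -1.34. ITGB1 (NM_033668), the most widely expressed β chain of the body, stood at 6.54 RPKM in high c-Myc cells and 15.4 RPKM in low c-Myc cells, a log2 ratio of -1.18. Both were thus at least 2-fold lower. After a correction for transcript GC content the ratio of ITGB1, whose transcript is 38.5% GC, was -0.66 and no longer past 2-fold, and that of ITGA4, at 44.1% GC, was -1.05.

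ITGB7 (NM_000889) was the most abundant of the 9 genes in both libraries and differed least between them on the deposited scale. After quantile normalization its log2 ratio was -0.69, and SELPLG and ITGAE, at -0.45 and -0.62, differed less. It stood at 135 RPKM in high c-Myc cells, rank 352 of the 10272 expressed genes, and at 154 RPKM in low c-Myc cells, rank 173. The log2 ratio was -0.19, with a 95% counting interval of -0.21 to -0.17 for the ratio without a pseudocount. In GENCODE 29, 42.1% of the exon bases of ITGB7 overlap exons of ZNF740 on the opposite strand. ZNF740 was listed at 11.5 RPKM in high c-Myc cells and 11.3 RPKM in low c-Myc cells, and whether strand was used in counting is not given in the sources here. For the other 8 genes, at most 6.41% of exon bases overlap any one other gene.

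ITGAE (NM_002208), the αE chain that pairs with ITGB7 and binds E-cadherin on epithelium, was the least abundant. It stood at 0.94 RPKM in high c-Myc cells and 1.61 RPKM in low c-Myc cells, on about 383 reads in high c-Myc cells and 640 reads in low c-Myc cells. Its log2 ratio was -0.55 with the pseudocount and -0.78 without it, with a 95% counting interval of -0.96 to -0.59.

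SELPLG (NM_003006) encodes PSGL-1, the ligand by which leukocytes roll on P-selectin. It stood at 3.61 RPKM in high c-Myc cells and 4.52 RPKM in low c-Myc cells, on about 859 reads in high c-Myc cells and 1050 reads in low c-Myc cells. The log2 ratio was -0.29, and its second transcript row gave -0.31. SELPLG and ITGB7 were the 2 genes nearest to no difference on the scale as deposited. After the GC correction SELPLG was at -0.67, beside -0.57 for ITGB7, -0.58 for ITGAE and -0.66 for ITGB1.

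**Figure D2:**
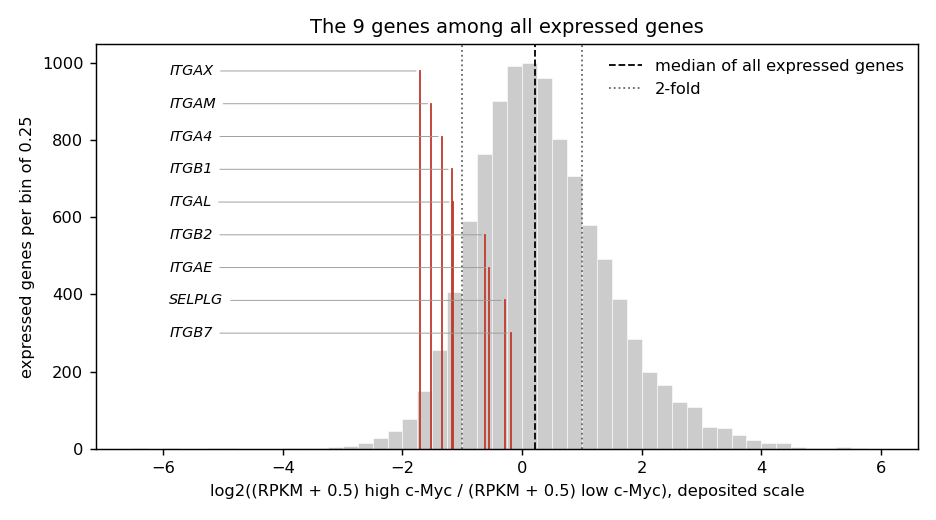
Number of expressed genes per bin of 0.25 in log2 ratio of high over low c-Myc on the deposited scale (grey), with the 9 genes as red lines whose height carries no value. The red lines lie between -1.71 and -0.19, all to the left of the median of all genes at 0.22 (dashed), and 5 lie beyond the 2-fold line at -1 (dotted).

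From the highest to the lowest, the order of levels in high c-Myc cells was ITGB7, ITGB2, ITGA4, ITGAM, ITGB1, SELPLG, ITGAL, ITGAX and ITGAE. In the low c-Myc library ITGAX and ITGAL stood above SELPLG, in that order, and the rest of the order was the same. In neither library did the 95% counting intervals of neighbours in the order overlap, and the spread between replicates is unknown. ITGB7 was 143-fold above ITGAE in high c-Myc cells and 95.5-fold above it in low c-Myc cells.

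The balance of α to β transcripts also differed between the libraries, and a constant factor on all values of a library leaves this ratio as it is. The summed RPKM of ITGAL, ITGAM and ITGAX was 24.9 against 50.6 for ITGB2 in high c-Myc cells, a ratio of 0.49. In the low c-Myc library the sum was 73.3 against 77.6, a ratio of 0.94. ITGA4 over ITGB7 gave 0.21 in high c-Myc cells and 0.48 in low c-Myc cells. ITGA4 over ITGB1 gave 4.37 in high c-Myc cells and 4.76 in low c-Myc cells, which differ by 1.09-fold, whereas ITGA4 over ITGB7 differed by 2.25-fold. This contrast between the pairs depends on GC content. After the GC correction the log2 ratios of ITGB1 and ITGB7 lay close together, at -0.66 and -0.57, beside -1.05 for ITGA4. Over all 8 integrin chains the summed α transcripts were 0.28 of the summed β transcripts in high c-Myc cells and 0.60 of them in low c-Myc cells. The median log2 ratio was -1.34 over the 5 α chains and -0.61 over the 3 β chains, and after the GC correction it was -1.21 and -0.66.

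**Figure D3:**
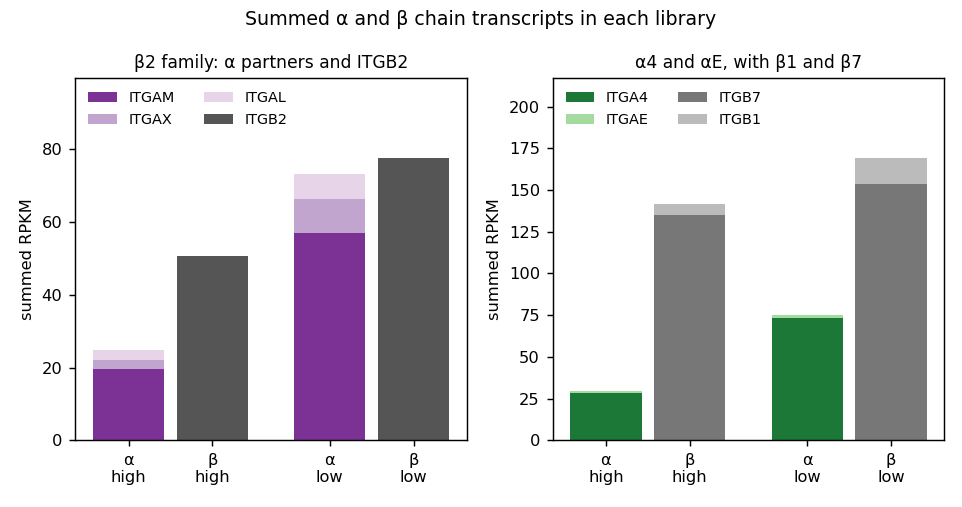
Summed RPKM of α and β chain transcripts in high c-Myc cells (left pair of bars in each panel) and the low c-Myc library (right pair), stacked by gene. On the left the α partners of ITGB2 reach 24.9 RPKM beside 50.6 for ITGB2 in high c-Myc cells and 73.3 beside 77.6 in low c-Myc cells, and on the right ITGB7 makes up most of the β bars.

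Among the 3 β chains, ITGB7 held 70.3% of the summed RPKM in high c-Myc cells and 62.3% in low c-Myc cells. ITGB1 held 3.41% of it in high c-Myc cells and 6.24% in low c-Myc cells, and ITGB2 held 26.3% in high c-Myc cells and 31.4% in low c-Myc cells. Levels of transcripts do not give the number of receptors on the surface, which was not measured.

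The second comparison asked how the genes differed per cell, which the synthetic RNAs allow. The 46 synthetic RNAs at 1 RPKM or more in both libraries had log2 ratios with a median of -2.56 (interquartile range -2.84 to -2.17), which was subtracted from each gene's ratio. On this scale all 9 genes were higher in high c-Myc cells, the opposite direction to the deposited scale, and 8 of the 9 (88.9%) were at least 2-fold higher. Over all expressed genes 97.1% were at least 2-fold higher per cell and 0.0876% at least 2-fold lower. The median per-cell log2 ratio of the 9 genes was 1.40, where that of all expressed genes was 2.78.

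ITGB7 was 5.16-fold, SELPLG 4.82-fold, ITGAE 4.02-fold and ITGB2 3.85-fold higher per cell in high c-Myc cells. ITGAL, ITGB1 and ITGA4 followed at 2.63-fold, 2.60-fold and 2.32-fold. ITGAM lay on the threshold at 2.05-fold, and ITGAX, at 1.79-fold, was the 1 gene short of it. The order of the genes is that of the deposited scale, since the same value was subtracted from each.

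These per-cell values depend on the synthetic RNAs. With the upper quartile of their ratios in place of the median, 5 of the 9 genes were at least 2-fold higher, and with the lower quartile all 9 were. In the column that the authors renormalized to the synthetic RNAs, 4 of the 9 were at least 2-fold higher, ITGB2, ITGB7, ITGAE and SELPLG, beside 90.0% of all expressed genes. There ITGAM had a log2 ratio of 0.70 and ITGAX one of 0.28.

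**Figure D4:**
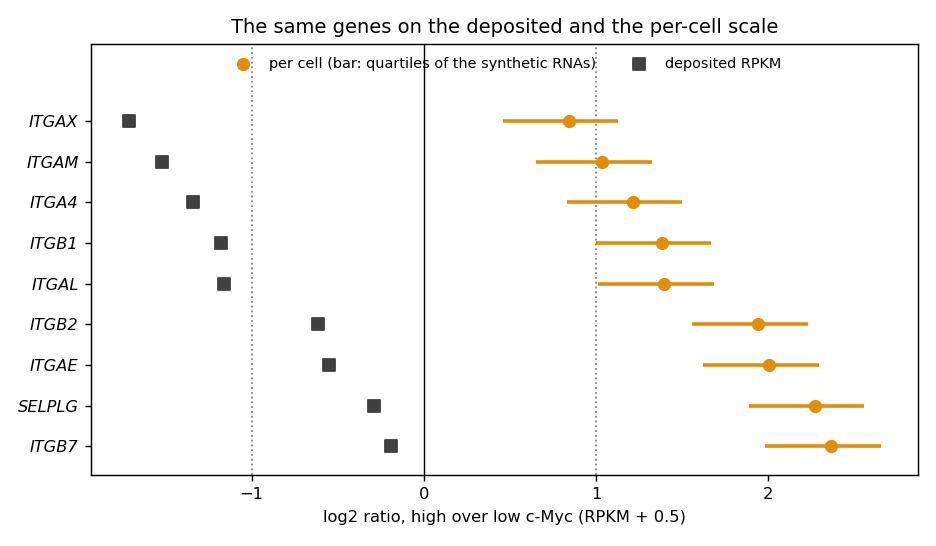
Log2 ratio of high over low c-Myc of the 9 genes on the deposited scale (squares) and per cell (circles), with bars that run between the values at the upper and lower quartile of the synthetic RNA ratios. All squares lie left of 0, from -1.71 to -0.19, and all circles lie right of it, from 0.84 for ITGAX to 2.37 for ITGB7.

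The genes that work with these receptors were followed in 9 lists with 138 genes, of which 95 were measured. On the deposited scale 21 of the 95 were at least 2-fold lower in high c-Myc cells and 7 were at least 2-fold higher. The shares over all expressed genes were 9.74% lower and 24.9% higher, and they stand beside the count of each list below too. The median log2 ratio of the 95 was -0.31, beside 0.22 for all expressed genes. With equal RPKM sums or quantile normalization, 37 or 40 of the 95 were at least 2-fold lower, beside 17.7% or 17.0% of all expressed genes. Ratios of the lists are on the deposited scale unless said to be per cell. Per cell the direction was the opposite for every list. The list medians ran from 1.67 for surface partners to 2.91 for ligands, beside 2.78 for all expressed genes, and no measured gene was at least 2-fold lower. Of the 18 other integrin chains, 3 were measured and none was past 2-fold, and the median was -0.71. ITGA5, the α chain of the fibronectin receptor, stood at 2.61 RPKM in high c-Myc cells and 5.48 RPKM in low c-Myc cells, a log2 ratio of -0.94, or -1.20 and thus past 2-fold once corrected for GC content. ITGAV and ITGA3 had log2 ratios of -0.71 and -0.31, which GC correction took to -0.41 and -0.82 and so put in the reverse order. ITGA2, ITGA6, ITGA8, ITGA11 and ITGB6 were listed at 0 in both libraries.

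Among the 14 ligands and counter-receptors of integrins, 7 were measured, 1 was higher and none lower, and the median was 0.36. The higher gene was ICAM5, a ligand of LFA-1 known from neurons, at 33.8 RPKM in high c-Myc cells and 1.54 RPKM in low c-Myc cells, a log2 ratio of 4.07, or 2.60 once corrected for GC content. ICAM1, the main ligand of LFA-1 and Mac-1, stood at 49.7 RPKM in high c-Myc cells and 35.4 RPKM in low c-Myc cells, a log2 ratio of 0.49, while ITGAL and ITGAM were both at least 2-fold lower. ICAM4 had a log2 ratio of 0.63, the junction protein F11R one of -0.87 and CD47, which associates with integrins, one of -0.85. GC correction took them to 0.14, -0.76 and -0.22. VCAM1, MADCAM1 and CDH1, the ligands of the α4 and αE integrins, stood below 1 RPKM in both libraries.

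Of 9 selectins and rolling receptors 4 were measured, of which 2 were lower and none higher, and the median was -0.69. CD44, a hyaluronan receptor, stood at 31.4 RPKM in high c-Myc cells and 70.3 RPKM in low c-Myc cells, a log2 ratio of -1.15. CD24, a P-selectin ligand, stood at 18.8 RPKM in high c-Myc cells and 71.8 RPKM in low c-Myc cells, a log2 ratio of -1.90. SPN, which encodes CD43, and GLG1, an E-selectin ligand, had log2 ratios of 0.19 and -0.23. SELP and SELE, the selectins of platelets and vessel walls, were listed at 0 in both libraries.

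PSGL-1 needs the right sugars to bind selectins, and sulfate groups to bind some of them. The list of selectin ligand glycosylation and sulfation covers ligands in general, and its genes lay on both sides of 0. Of 13 measured of 15, 3 were higher and 3 lower, and the median was 0.13. CHST2, a sulfotransferase that acts on N-acetylglucosamine, stood at 135 RPKM in high c-Myc cells and 28.5 RPKM in low c-Myc cells, a log2 ratio of 2.22. ST3GAL4, a sialyltransferase of selectin ligands, stood at 10.7 RPKM in high c-Myc cells and 2.03 RPKM in low c-Myc cells, a log2 ratio of 2.14. C1GALT1, which builds the core of O-linked sugars, had a log2 ratio of -1.43, which GC correction took to -0.75, short of 2-fold. TPST1, a tyrosine sulfotransferase that can act on PSGL-1, stood at 1.27 RPKM in high c-Myc cells and 3.77 RPKM in low c-Myc cells. Its log2 ratio was -1.27. TPST2, the other tyrosine sulfotransferase of the list, was more abundant and had a log2 ratio of 0.40. It stood at 20.7 RPKM in high c-Myc cells and 15.6 RPKM in low c-Myc cells.

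Of 23 genes of inside-out activation 16 were measured, of which 5 were lower and none higher, and the median was -0.66. Per cell 13 of the 16 were at least 2-fold higher, beside 97.1% of all expressed genes, and the median was 1.90. The kindlin FERMT3, which all leukocyte integrins need, stood at 130 RPKM in high c-Myc cells and 87.5 RPKM in low c-Myc cells. Its log2 ratio was 0.57, or 0.023 after the GC correction. FYB, an adaptor known from T cell adhesion, stood at 1.96 RPKM in high c-Myc cells and 14.4 RPKM in low c-Myc cells, a log2 ratio of -2.60, and its per-cell log2 ratio was -0.05. CYTIP, which binds cytohesins, had a log2 ratio of -1.83, while the cytohesin CYTH1 stood at 0.26 and RAPGEF1, an activator of RAP1 and the most abundant of the list, at 0.06, or -0.15 after the GC correction. Of the 12 brakes and tail-binding regulators 11 were measured and none was past 2-fold, and the median was 0.23. They ranged from -0.08 for RASA1, which the GC correction took to 0.011, to 0.58 for ITGB1BP1 and 0.69 for SHARPIN, which GC correction took to -0.70, and FLNA, the most abundant, was at 0.31 as deposited and at -0.31 with that correction.

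Of 25 genes of outside-in signalling 21 were measured, of which 7 were lower and 1 higher, and the median was -0.64. Per cell 18 of the 21 were at least 2-fold higher, and the median was 1.92. NEDD9, a docking protein, was the lowest at -1.61. The parvin PARVB was the higher gene at 1.28, and SRC followed at 0.73. SYK, the most abundant of the list and a kinase of the B cell receptor as well, stood at 109 RPKM in high c-Myc cells and 235 RPKM in low c-Myc cells, a log2 ratio of -1.11, or -0.99 after the GC correction. Of 12 surface partners 10 were measured, of which 4 were lower and 2 higher, and the median was -0.89. The tetraspanins CD53 and CD37 had log2 ratios of -1.69 and -1.21, the protease ADAM17, which sheds surface proteins, one of -1.55 and the tetraspanin CD151 one of 1.11, or 0.55 and thus short of 2-fold once corrected for GC content. SLC3A2, which binds β chain tails and also carries amino acid transporters to the surface, was at 2.89.

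Among 10 transcription factors known at promoters of leukocyte integrins, all were measured and none was past 2-fold, and the median was -0.19. SPI1, which encodes PU.1, was the most abundant at 136 RPKM in high c-Myc cells and 171 RPKM in low c-Myc cells, a log2 ratio of -0.33, or -1.49 once corrected for GC content. RUNX3 and GABPB1 had the highest log2 ratios, 0.82 and 0.71, and ETS1 and GABPA the lowest, -0.75 and -0.68, as deposited. GC correction took GABPA to 0.0090.

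**Figure D5:**
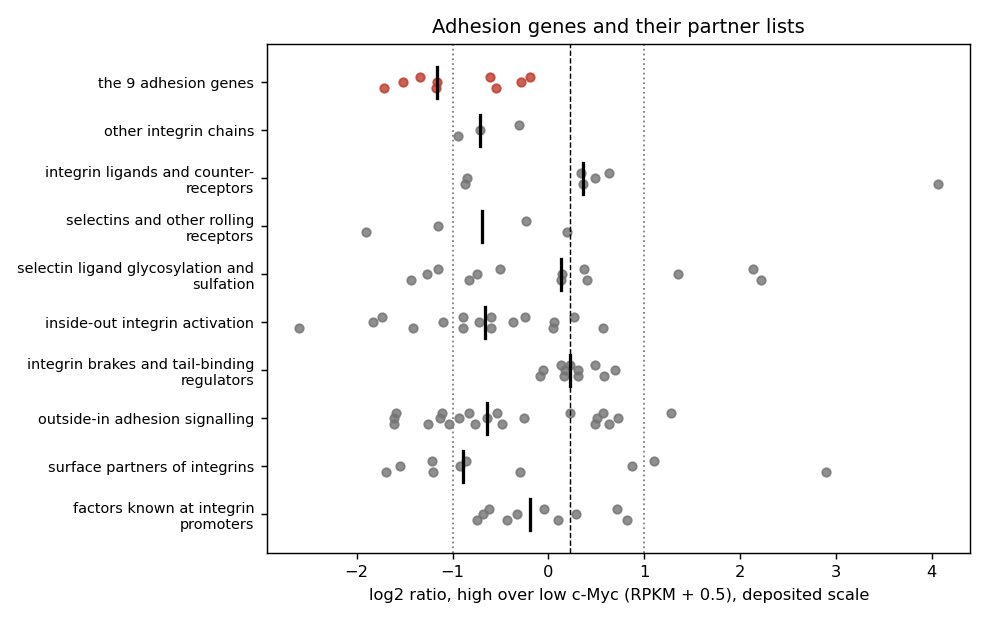
Log2 ratio of high over low c-Myc on the deposited scale for the 9 adhesion genes (red, top) and the measured genes of the 9 partner lists (grey), with black bars at the medians, 2-fold as dotted lines and the median of all genes dashed. The bar of the 9 genes lies at -1.16, and those of the lists run from -0.89 for surface partners to 0.36 for ligands. The height of points within a row carries no value.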

How the data were processed

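Per the labels' protocols, total RNA received ERCC ExFold synthetic RNAs by cell number, and poly(A) RNA was made into strand-specific dUTP libraries with 15 PCR cycles. Bowtie and build hg18 are named, per the submitters' processing notes, while counting and its use of strand are not given in the sources here. The authors deposited RPKM values, per the file headers, and a second RPKM column that they renormalized to the spike-ins (method not given in the sources here). Each table held 34286 rows, 92 of them synthetic RNAs.

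For each symbol the row of highest mean RPKM was used, and log2(RPKM + 0.5) was compared, which understates deposited differences of weakly expressed genes. Per-cell ratios subtract the median of the synthetic RNAs after the pseudocount. For weakly expressed genes that are lower as deposited, per-cell increases are therefore overstated. RPKM is no count and each group had 1 library, so no model and no p-value was used. Depth came from RPKM times GENCODE 29 transcript length, where 46.4% and 48.8% of transcripts with up to 20 reads, in the high and low c-Myc libraries, were whole to within 0.05, where chance gives 10%. Those lengths are not the authors', so reads are approximate, and exact binomial and Poisson intervals at 95% cover counting error only. GC content was found for 9949 (96.9%) expressed genes, and the correction subtracts a running median over 501 genes ordered by GC and adds back the overall median. Across those genes, which are not independent, Spearman's rho between ratio and GC was 0.41.

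The members and lists were chosen with earlier results of these data known. Named genes were all 9 members, the 2 highest, 2 lowest and most abundant measured genes of each list, and the 3 nearest to ITGB2; others in the text were chosen after their values were seen. A few genes that this rule names are not reported here. Other markers gave, in the high and low c-Myc libraries, summed RPKM of 5.26 and 10.6 for NK cells, 0.16 and 0 for erythroid cells and platelets, and 13.1 and 19.3 for fibroblasts and epithelium. Alternatives covered pseudocounts of 0.1 and 1, filters, scaling, row choice, GC, fold and synthetic RNA sets. The scripts ran in Python 3.11.15 with pandas 2.3.3, numpy 2.4.6, scipy 1.17.1 and matplotlib 3.10.9, and were tested on simulated data.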

Additional observations from a re-analysis of the deposited data

How the results depend on the processing

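No paired analysis was possible because each group had 1 library, and no library could be left out. All 79 alternative log2 ratios of the 9 genes on the deposited scale and all 70 per cell kept their sign. Part of these could not change it. A change of filter repeats the main values, and a pseudocount cannot turn the sign of a deposited ratio. Centring and equal RPKM sums shift the ratios down, and all 9 were already below 0. Per cell, the mean of the synthetic RNA ratios, -2.53, lay too close to their median of -2.56 to turn a sign. The number of the 9 genes at least 2-fold lower was 5 as deposited, 6 after quantile normalization, with ITGB2 at -1.22, and 4 after the GC correction, beside 9.74%, 17.0% and 8.65% of all genes. Centring, equal RPKM sums and quantile normalization put the median of all genes at 0, -0.13 and -0.09, against 0.22 as deposited, and the part of all 2-fold calls that were higher at 57.3%, 48.9% and 50.6%, against 71.8%. Per cell, 8 of the 9 genes were at least 2-fold higher and 4 were in the authors' renormalized column; that column's method is not given, and the cause was not tested. Of the partner genes 40 were at least 2-fold lower after quantile normalization and 37 with equal RPKM sums, against 21 as deposited, and the share of all genes rose as well, to 17.0% and 17.7%. At a threshold of 1.5-fold 41 were lower and 14 higher, beside 20.04% and 36.8% of all genes. A filter of 5 RPKM left 7 of the 9 genes. Each gene rested on about 383 to 45437 reads per library, which sets the counting error, and the spread between replicates is unknown.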
